A study of Homo sapiens with 2 samples.

Results

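The small C-terminal domain (CTD) phosphatases were examined in C4-2 cells, an established human prostate cancer line, after transfection with miR-99a. The family was taken as CTDSPL, CTDSP1, CTDSP2 and CTDSPL2, and its members were all probe sets that the array annotation gives to exactly 1 of these 4 genes, which were 12 of 54675 probe sets and 4 of 19775 named genes. CTDSPL had 5 probe sets, CTDSPL2 had 4, CTDSP2 had 2 and CTDSP1 had 1. No probe set was shared between a member and another gene.

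One group was C4-2 cells transfected with miR-99a, and the other was C4-2 cells transfected with the control siRNA si-GL2, which carries the name of a luciferase reporter. Both were transfected with RNAiMax in medium with serum and harvested after 48 h. Total RNA was hybridised to Affymetrix arrays, 1 array per group. Every value below is therefore a single measurement, a difference is between 2 arrays, and no replicate error or p-value exists for it.

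These phosphatases remove phosphate from the repeated tail, the CTD, of the largest subunit of RNA polymerase II, and so act on the transcription machinery itself. They are also known as partners of the repressor REST at neuronal genes, and as phosphatases of SMAD proteins. CTDSPL, also called RBSP3 and HYA22, was described as a candidate tumour suppressor that dephosphorylates the retinoblastoma protein RB1. It has also been reported as a target of miR-100, a close relative of miR-99a.

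The microRNAs that the comparison turns on are shown with the seed, bases 2 to 8, in capitals, because the seed is the part that pairs with a target. The sequences are those of RefSeq on GRCh38.p14, written 5′ to 3′. The transfected miR-99a shares its seed with miR-100 and miR-99b, and these 3 were the only ones of 2370 mature human microRNAs in the table that hold it.
miR-99a-5p: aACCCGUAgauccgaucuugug
miR-100-5p: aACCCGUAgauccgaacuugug
miR-99b-5p: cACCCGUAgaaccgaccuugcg
Counted from the 5′ end, miR-100 differed from miR-99a by the substitution U16A alone, and miR-99b by A1C, U11A, U16C and U21C. All of these lie outside the seed.

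In 3 cases, the family's genes share a feature of position that their choice did not use, since they each hold a hairpin of the miR-26 family between its start and its end. MIR26A1 lies in CTDSPL at chr3:37969404-37969480 on the plus strand. MIR26B lies in CTDSP1 at chr2:218402646-218402722, also on the plus strand, and MIR26A2 lies in CTDSP2 at chr12:57824609-57824692 on the minus strand. CTDSP1 and CTDSP2 are read from the same strand as their hairpins. No other protein-coding gene held one of these 3 hairpins, and 884 of 20052 protein-coding genes (4.41%) held any microRNA hairpin. CTDSPL2 held 0.
miR-26a-5p, from both MIR26A1 and MIR26A2: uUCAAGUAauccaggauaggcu
miR-26b-5p: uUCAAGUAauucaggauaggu
The miR-26a and miR-26b sequences share a seed and differ by C11U and C21U, and miR-26b is 1 base shorter, at 21 against 22. The miR-26 seed matches that of miR-99a at 4 of 7 positions and is a different seed. The annotation names 0 probe sets for the miR-26 genes, so the microRNAs themselves were not measured here.

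Across the family, most probe sets were somewhat lower after miR-99a and 1 was far lower. A probe set counted as expressed when its mean over both arrays reached the median of all probe sets, a signal of 47.2, and 10 of the 12 did. Differences are miR-99a minus si-GL2 on the log2(signal + 16) scale, on which changes of dim probe sets come out too small. Of the 10 expressed probe sets, 9 lay below 0, where 53.7% of all 27338 expressed probe sets did. The median of the 10 was -0.16, against -0.02 over all expressed probe sets. A change of at least 1.5-fold is used as a limit of size, with no test behind it. By this limit 1 of the 10 was lower and 0 were higher, against 2.57% lower and 1.48% higher of all expressed probe sets. Probe sets of 1 gene measure the same RNA pool and are not replicates, so these counts describe 4 genes on 2 arrays. Quantile normalization left 9 of the 10 below 0, but moved CTDSP1 and the brightest probe set of CTDSPL2 to -0.0095 and -0.0047.

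**Figure D1:**
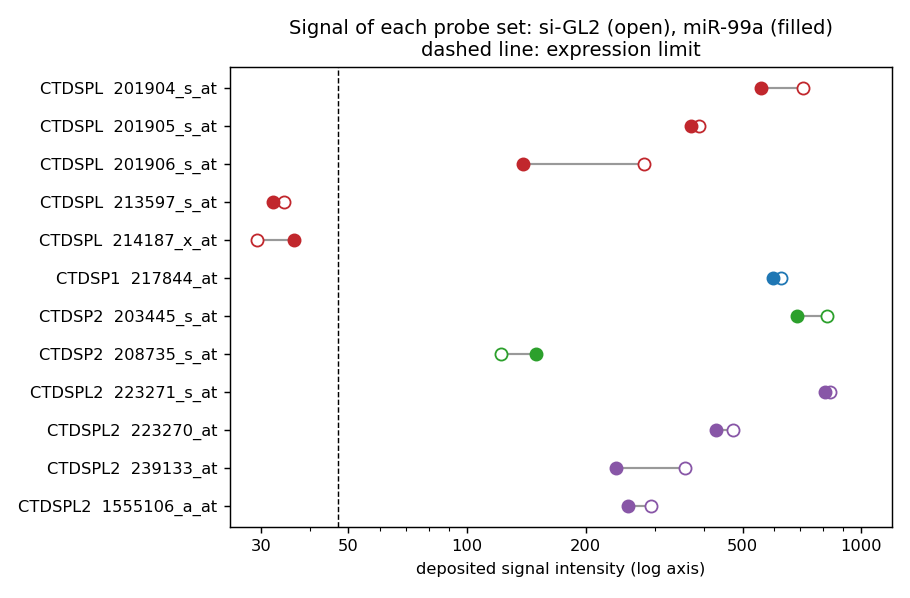
Deposited signal intensity on a log axis for each of the 12 probe sets, with the si-GL2 array as an open and the miR-99a array as a filled circle, joined by a line. The longest gap is that of CTDSPL 201906_s_at, from 282 to 139, and the 2 probe sets left of the dashed expression limit of 47.2 both belong to CTDSPL.

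CTDSPL was lower after miR-99a by all 3 of its expressed probe sets, but by very different amounts. Probe set 201906_s_at, annotated to the gene's RefSeq mRNA, read 139 after miR-99a and 282 after si-GL2. The control was 2.03 times as high on the deposited signals, and the difference was -0.94. This is the 1 family value past 1.5-fold, and 0.388% of all expressed probe sets were as low. Of the 1000 probe sets nearest to it in level, 0.4% differed as far downward, and the SD of their differences was 0.28. Its value lay between -1.02 and -0.77 over the pseudocounts of 1 and 64, centring and quantile normalization.

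The other CTDSPL probe sets differed less. The brightest, 201904_s_at, annotated to an expressed sequence tag, read 714 with si-GL2 and 556 with miR-99a. Their difference of -0.35 was within 1.5-fold. As low a value was found for 9.85% of all expressed probe sets. The next, 201905_s_at, annotated to another tag, read 370.4 and 388, a difference of -0.07, and the arrays were nearly alike there.

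Below the expression limit lay 213597_s_at at 32.2 and 34.3 (-0.06), and 214187_x_at at 36.4 and 29.4 (0.21). The latter is of the _x_ kind, which Affymetrix marks as open to cross-hybridisation. It is the 1 CTDSPL reading above 0. All 5 CTDSPL probe sets are of the _s_ or _x_ kind, whose probes are not unique to 1 transcript.

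The spread among the CTDSPL probe sets was wide for these arrays. The highest and lowest of its 3 expressed probe sets differed by 0.88, while the median range over the 1549 genes with 3 expressed probe sets was 0.25. Of those genes, 25 (1.61%) had a range as wide, and 98 (6.33%) had at least 1 probe set 1.5-fold lower. All 3 probe sets lay below 0 in 450 of them (29.1%). For CTDSPL as a gene, the brightest probe set gave -0.35, the mean over the 3 expressed ones -0.45 and the mean over all 5 -0.24, each short of 1.5-fold. By the brightest probe set 10.3% of the 12218 expressed genes were as low.

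CTDSP1, the phosphatase best known for its part in silencing neuronal genes with REST, was nearly alike on both arrays. Its 1 probe set, 217844_at, read 625 with si-GL2 and 598 with miR-99a, which differ by -0.06. The value was as low in 41.8% of expressed probe sets, close to the middle of the arrays. This is also the only probe set of the 3 miR-26 host genes that is not of the _s_ or _x_ kind.

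CTDSP2, which lies on chromosome 12 and is also known as OS4, gave opposite signs by its 2 probe sets. Probe set 203445_s_at, annotated to the RefSeq mRNA, read 686 after miR-99a and 820 after si-GL2 (-0.25). The dimmer 208735_s_at read 149.5 and 122, a difference of 0.26, and was the 1 expressed family probe set above 0. The mean of both was 0.0057, so the 2 probe sets together gave no direction for the gene. A range of 0.52 or more between a pair of expressed probe sets was found in 234 of 3231 genes with such a pair (7.24%).

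CTDSPL2, also known as SCP4 and the member without a miR-26 hairpin, lay below 0 by all 4 of its probe sets, each within 1.5-fold. The brightest, 223271_s_at, read 810 after miR-99a and 833 after si-GL2 (-0.04). Probe set 223270_at, annotated to the same mRNA, read 427 and 471 (-0.14), and 1555106_a_at, annotated to another mRNA clone, read 257 and 293 (-0.18). These 3 readings lay within 1 SD of the differences of probe sets at like level.

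The lowest CTDSPL2 reading came from 239133_at, annotated to an expressed sequence tag, at 239 after miR-99a and 357 after si-GL2. Its difference of -0.55 fell just short of 1.5-fold, and 3.08% of expressed probe sets were as low. It lay between -0.58 and -0.48 over the same settings and did not reach 1.5-fold in any of them. The 4 CTDSPL2 values spanned 0.51, against a median range of 0.36 over the 642 genes with 4 expressed probe sets, and 156 of those (24.3%) spanned as much. All 4 probe sets lay below 0 in 126 of them (19.6%).

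**Figure D2:**
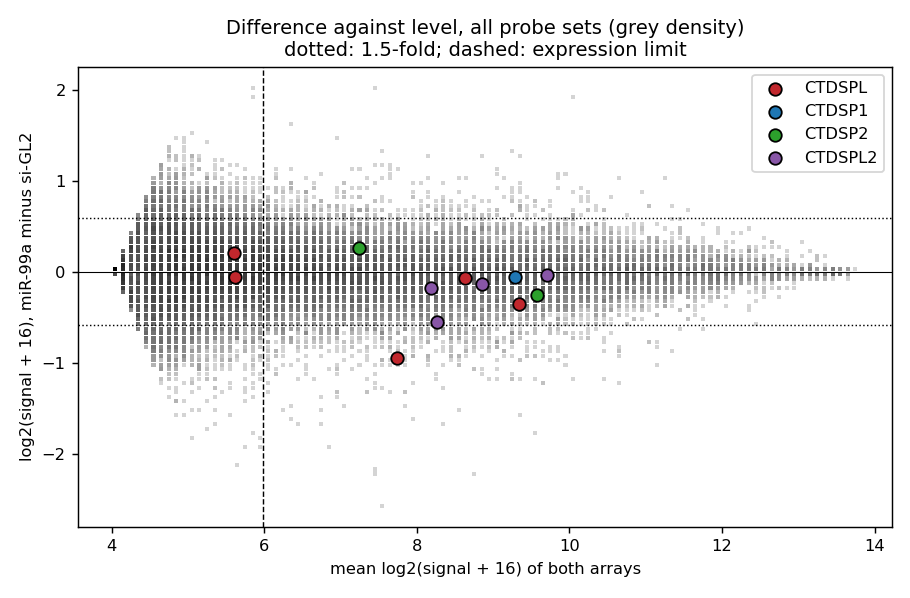
Difference in log2(signal + 16), miR-99a minus si-GL2, against the mean log2 level of both arrays, with all probe sets as grey density and the family in colour. CTDSPL 201906_s_at at -0.94 is the 1 coloured point below the dotted 1.5-fold line, and CTDSPL2 239133_at at -0.55 lies just inside it.

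**Figure D3:**
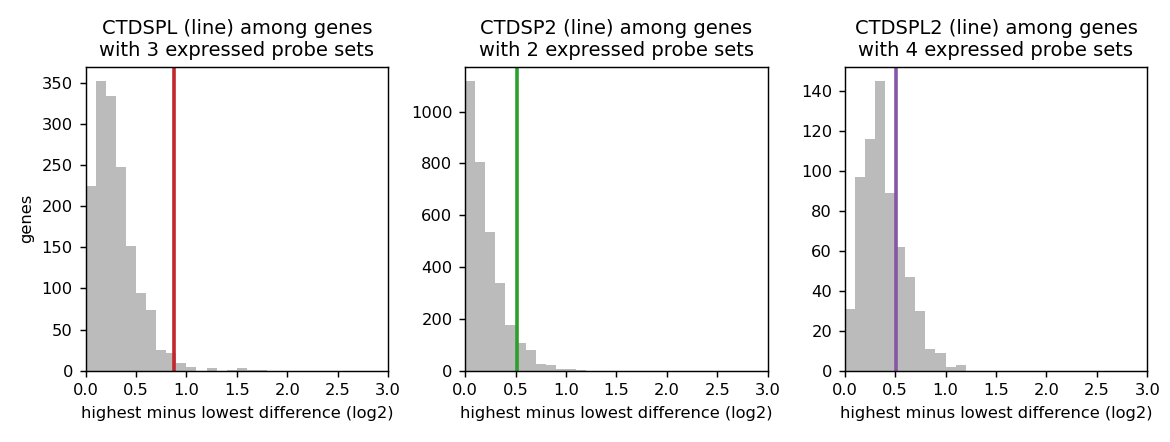
Histograms of the range between the highest and lowest difference (log2) among a gene's expressed probe sets, for genes with 3, 2 and 4 of them, with a line at CTDSPL (0.88), CTDSP2 (0.52) and CTDSPL2 (0.51). The CTDSPL line lies in the tail of its histogram, and that of CTDSPL2 within the bulk.

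By brightest probe sets all 4 genes lay below 0, at -0.35 for CTDSPL, -0.25 for CTDSP2, -0.06 for CTDSP1 and -0.04 for CTDSPL2. Of the 12218 expressed genes, 56.3% lay below 0 and 43.7% above it by the same measure, and the counts of signs in the gene lists that follow are to be read against these shares. Differences measured by several probe sets of 1 gene had a pooled SD of 0.20 over the 5842 genes with 2 or more expressed ones. The gap between CTDSPL and CTDSP2 was smaller than that SD, and so was the gap between CTDSP1 and CTDSPL2. None passed 1.5-fold, where 2.90% of all expressed genes were lower and 1.21% higher. Over all expressed genes the median was -0.03. With 2 arrays a gene's pattern is a single difference, and 117 of 2610 genes with at least 3 expressed probe sets had a median within 0.05 of that of CTDSPL. The nearest were CCDC186 at -0.35, PHF3 at -0.35 and CDKN1C, which encodes the cell cycle inhibitor p57, at -0.35. Their expressed probe sets ranged over 0.23, 0.08 and 0.08, less than the 0.88 of CTDSPL.

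The RNAs of the family's known protein substrates gave no common direction. The phosphorylation of these proteins was not measured. Of 10 listed, 9 were expressed, 5 lay below 0 and 4 above, 0 passed 1.5-fold in either direction, and the median was -0.08. SMAD1, a transducer of BMP signals, read 332 after miR-99a and 452 after si-GL2, the lowest of the list at -0.43, with its other expressed probe set at -0.24. RB1, the substrate named for CTDSPL, read 497 and 607, a difference of -0.28, with its second probe set at -0.44. MYC was highest at 5558 and 4618 (0.27), followed by SMAD2 at 0.15, whose 4 expressed probe sets ran from -0.17 to 0.27.

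The 14 expressed E2F targets, genes downstream of RB1, had a median of 0.04 by brightest probe sets. Of them 10 lay above 0, where 43.7% of all expressed genes were, and 0 passed 1.5-fold either way. MCM3, a subunit of the replicative helicase, was highest at 583 after miR-99a and 414 after si-GL2 (0.48), and TYMS, thymidylate synthase, read 3030 and 2287 (0.40). TK1, thymidine kinase, was lowest at 1680 and 1999 (-0.25), followed by MYBL2 at -0.11. CDK1 was at 0.06 by its brightest probe set, but its 4 expressed probe sets ran up to 0.94, past 1.5-fold. Those of TK1 ran down to -0.30.

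The RNAs of REST, and by median those of its complex and its repressed genes, were close to the arrays' middle by brightest probe sets. The family's action with REST was not measured. REST itself read 937 with si-GL2 and 934 with miR-99a (-0.01), with a second expressed probe set at 0.15. Over 9 expressed genes of the REST repressor complex the median was 0.08, 4 lay below 0 and 0 passed 1.5-fold. The scaffold genes SIN3B (0.22) and SIN3A (0.21) were highest, and RCOR1 (-0.12) and HDAC2 (-0.06) lowest. Of 15 neuronal genes that REST represses, 5 were expressed, with a median of -0.01, or 0.03 after quantile normalization, and 0 past 1.5-fold. SYT4 read 3626 and 3998 (-0.14), TUBB3 2389 and 2633 (-0.14), and SNAP25 111 and 104 (0.08). SYN1 was highest at 66.2 and 51.7 (0.28), signals not far above the expression limit.

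Enzymes that act on the same polymerase tail, and relatives and partners that need not act on it, were measured beside the family. Of 10 other CTD phosphatases, relatives and their partners, all were expressed, 6 lay below 0, 0 passed 1.5-fold and the median was -0.03, or 0.01 after quantile normalization. CTDP1, the phosphatase that recycles the polymerase, read 133 after miR-99a and 97.6 after si-GL2 (0.39), and RPRD1B was at 0.23. As a mean over its 2 probe sets, of which 1 was expressed, RPRD1B was at -0.04, while the list median as means was 0.07. RPRD1A read 768 and 885 (-0.20), and SSU72 2949 and 3089 (-0.07), although the 4 probe sets of SSU72 ran from -0.29 to 0.73. By brightest probe sets, the kinases that add the phosphates and their cyclins were above 0 in 9 of 12 cases. Of all expressed genes 43.7% were. The median of the list was 0.04, and 0 passed 1.5-fold. As means over all probe sets CCNK and CCNT1 lay below 0, at -0.18 and -0.17 in place of 0.10 and 0.03. No gene of the list crossed 0 the other way, and the median was 0.03. CDK7, the TFIIH kinase, was highest at 1065 and 797 (0.41), and CDK8 of the Mediator kinase module was at 0.33. CCNH, the cyclin of CDK7, was lowest at 2313 and 2592 (-0.16), and MNAT1, which assembles that kinase, was at -0.08. CDK19 was at 0.27 by its brightest probe set, but its 4 expressed probe sets ran up to 0.81, past 1.5-fold. Their mean was 0.51. The expressed probe sets of CCNT1 ran down to -0.38.

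Reported targets of miR-26, the microRNA family that 3 members carry, lay on both sides of 0. Of 19 listed, 15 were expressed, 7 lay below 0 and 8 above, and the median was 0.03. Past 1.5-fold, 1 of the 15 was lower and 1 higher, where 2.9% and 1.21% of all expressed genes were. CDK6, a G1 kinase, was lower at 25.1 after miR-99a and 86.7 after si-GL2 (-1.32), by its 1 expressed probe set of 7. Its signal after miR-99a was below the expression limit of 47.2, which it reached only through the si-GL2 array, so nothing is read from its place past 1.5-fold. Its mean over all 7 was -0.48, short of 1.5-fold. CCNE1, cyclin E1, was higher at 590 and 381 (0.61), and at 0.27 as a mean over its pair of probe sets. TET3, a demethylating dioxygenase, read 295 and 447, so the control was 1.52 times as high on the deposited signals, and the difference of -0.58 on the log2(signal + 16) scale was just within 1.5-fold, while its second expressed probe set was at -0.88. EPHA2, a receptor kinase, was at 0.47. HMGA1 was at 0.44, with its second expressed probe set at 0.86 and a mean over both of 0.65, past 1.5-fold.

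**Figure D4:**
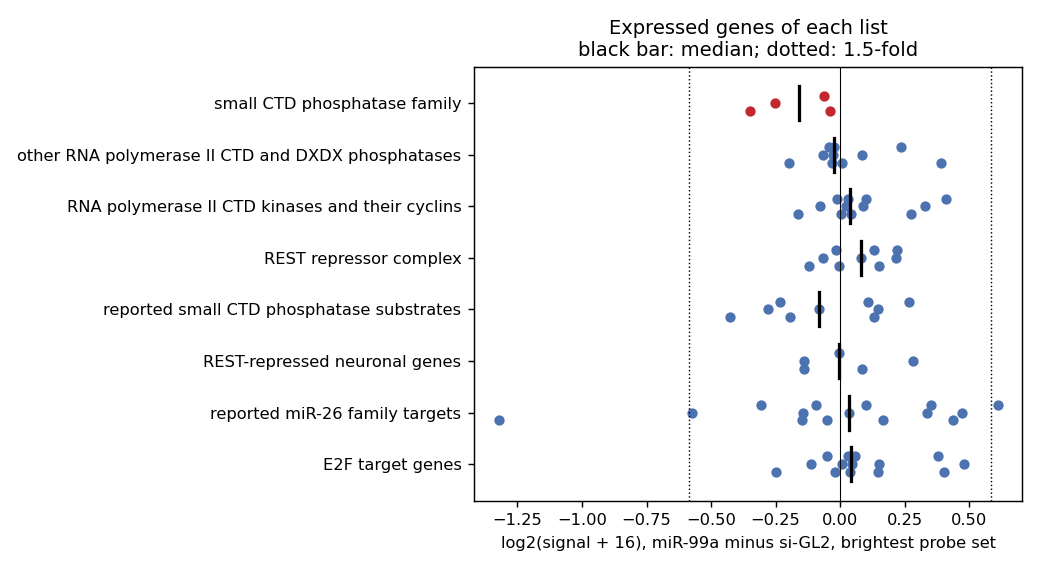
Difference in log2(signal + 16), miR-99a minus si-GL2, by the brightest probe set of each expressed gene, 1 row per list, with the median as a black bar and 1.5-fold as dotted lines. The 4 family genes, in red, all lie between -0.35 and -0.04, and of the listed genes CDK6 and CCNE1 on the miR-26 target list lie past 1.5-fold on this scale, CDK6 with a signal of 25.1 after miR-99a that is below the expression limit of 47.2.

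The median signals of the 2 arrays were 47.8 (miR-99a) and 47.4 (si-GL2). The label was checked against cell type markers, and all 7 luminal prostate markers analysed, among them KLK3 and KRT18, were expressed on both arrays. Their summed signals of 28266 and 28250 hold differences of both signs, from 0.31 for KRT8 and KRT18 and 0.27 for FOLH1 to -0.13 for KLK3 and -0.20 for KLK2. Neither of 2 basal markers, KRT5 and KRT14, was expressed, nor were PTPRC, CD14, VWF, CDH5 and COL3A1. Markers of other cell types that did count as expressed were CD3E of leukocytes at 73.2 after miR-99a and 52.8 after si-GL2, PECAM1 of endothelium at 194 and 167, and COL1A1 (229.6 and 233), DCN (89.9 and 65.0) and LUM (83.4 and 58.1) of fibroblasts. The summed signals were 444 after miR-99a and 380 after si-GL2 for 4 fibroblast markers, 118 and 77.1 for 3 leukocyte markers, 222 and 215 for 3 endothelial markers, and 35.2 and 40.5 for the basal pair. Their part in the family's values was not tested. The RNA is from a whole culture, so fewer cells expressing a gene and less RNA per cell cannot be told apart.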

How the data were processed

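The deposited values are linear intensities, 1 for each probe set on each array. RNA was labelled with biotin as Affymetrix prescribes, per the labels' protocols. How the authors summarised and scaled the intensities is not stated in the labels or the file, and no detection calls were used. Signals were used as deposited, since the array medians differed by 0.01 on the log2(signal + 16) scale, under the limit of 0.1 set for centring. Names came from the platform annotation, and the Entrez identifiers of all 12 family probe sets carried the same symbols in RefSeq (GRCh38.p14). A gene was represented by its brightest probe set, by the mean over both arrays, except where a mean is stated. With 1 array per group no test was run, and the number of arrays limits the precision. Named list genes are the 2 lowest and 2 highest of each list and all past 1.5-fold by brightest probe sets. REST, CDK19, CCNT1, CDK1, CCNK and HMGA1 were added after their values were seen. The 7 lists beside the family were written from general knowledge of the field. Family and lists were chosen with earlier results of these data known. Some listed genes are not analysed here. Code was tested on simulated data. Tools were Python 3.11.15, numpy 2.4.6, pandas 2.3.3 and matplotlib 3.10.9.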

Additional observations from a re-analysis of the deposited data

How the results depend on the processing

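All 12 family probe sets kept their sign, and moved by less than 0.20, under pseudocounts of 1 and 64, centring and quantile normalization. The 1 family probe set at least 1.5-fold lower, CTDSPL 201906_s_at, became 0 under a 2-fold rule, and 0 with the expression limit at the 75th percentile, which its level misses. As a mean over all or over expressed probe sets CTDSP2 was at 0.0057 in place of -0.25. Without _x_ and _s_ probe sets CTDSPL and CTDSP2 had none left and gave no value. In the miR-26 target list the 1 gene lower, CDK6, became 0 with the 75th percentile limit and with means over all probe sets; with a pseudocount of 1 CDK6 missed the expression limit and TET3 (-0.60) was the 1 gene lower instead. The 1 gene higher, CCNE1, became 0 with a pseudocount of 64 and under the 2-fold rule, and with means HMGA1 (0.65) was the 1 gene higher instead. List medians near 0 changed sign for the other CTD phosphatases (0.01 with quantile normalization, 0.07 as means), the substrates (0.0013 as means, but -0.23 with the 75th percentile limit), the REST-repressed genes (0.03 with quantile normalization and 0.07 without _x_ and _s_ probe sets, but -0.14 with the 75th percentile limit and -0.13 as means) and the miR-26 targets (-0.0085 with the 75th percentile limit). No replicate could be left out, and no paired analysis was possible because each group has 1 array.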
